A study of Mus musculus with 60 samples.

Results

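Among the 32 DiD+ tumor cells sorted from bone, 5 held 2000 or more counts of Postn, the gene of periostin, a secreted protein of the collagen-rich matrix. These 5 cells (numbers 29, 31, 41, 68 and 82 in the sample labels) are called Postn-high here and were compared with the other 27 DiD+ cells, and the 28 DiD- cells are given as a further reference, 60 cells in all. All cells were PyMT-Bo1, a mouse mammary tumor line that carries luciferase (Luc2), the red nuclear protein mApple and the surface marker Thy1.1, and every cell came from the same experiment: cells were stained with the membrane dye DiD, injected into the heart of wild-type C57BL6 mice, and sorted 1 per well from the pooled femurs and tibias of 5 mice. A cell that divides dilutes the dye, so DiD+ cells are those called dormant by the study and DiD- cells those called proliferative. No label names the mouse of a cell. Each side of the comparison is therefore 1 sample without replicates, and no test was run between the sides. The 5 cells were chosen by their Postn counts. Because of this, and because all genes were measured in the same cells, every difference below is a description of these cells.

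Periostin is made by fibroblasts, osteoblasts and some tumor cells, binds integrins and collagen, and is known in mouse models as part of the niche on which disseminated breast tumor cells grow. Keratins 8 and 18, encoded by Krt8 and Krt18, pair to form the intermediate filaments of simple epithelia, the cell type from which mammary carcinoma arises. Carcinoma cells that take on mesenchymal features commonly lower keratins and cell junction proteins and raise vimentin, fibronectin, N-cadherin and collagens, a change driven by transcription factors of the SNAI, ZEB and TWIST families.

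The promoters of 4 of the genes described are shown first, because much of the description turns on them, on the matrix side (Postn and Serpine2) and on the keratin side (Krt8 and Krt18). The sequences are the 250 bases before the transcription start in RefSeq (GRCm38.p6), 5′ to 3′ on the strand of the gene. Capitals mark the E-box CAGGTG, read on both strands, to which SNAI and ZEB factors are known to bind. The Postn window was chr3:54360857-54361106 on the plus strand, that of Serpine2 chr1:79858666-79858915 on the minus strand, that of Krt8 chr15:102004343-102004592 on the minus strand and that of Krt18 chr15:102027966-102028215 on the plus strand.
Postn: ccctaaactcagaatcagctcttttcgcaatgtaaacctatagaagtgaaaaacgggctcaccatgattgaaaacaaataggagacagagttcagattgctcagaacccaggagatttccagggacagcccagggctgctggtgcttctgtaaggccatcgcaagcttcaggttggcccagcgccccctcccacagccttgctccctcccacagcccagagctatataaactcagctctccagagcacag
Serpine2: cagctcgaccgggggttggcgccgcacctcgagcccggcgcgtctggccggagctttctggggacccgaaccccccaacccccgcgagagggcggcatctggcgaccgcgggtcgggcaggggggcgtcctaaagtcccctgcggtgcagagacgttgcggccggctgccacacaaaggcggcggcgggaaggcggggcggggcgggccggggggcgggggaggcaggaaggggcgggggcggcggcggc
Krt8: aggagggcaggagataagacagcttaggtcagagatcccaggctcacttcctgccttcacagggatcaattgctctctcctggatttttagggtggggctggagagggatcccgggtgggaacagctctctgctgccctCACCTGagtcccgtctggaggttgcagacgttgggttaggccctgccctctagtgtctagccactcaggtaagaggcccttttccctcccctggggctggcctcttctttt
Krt18: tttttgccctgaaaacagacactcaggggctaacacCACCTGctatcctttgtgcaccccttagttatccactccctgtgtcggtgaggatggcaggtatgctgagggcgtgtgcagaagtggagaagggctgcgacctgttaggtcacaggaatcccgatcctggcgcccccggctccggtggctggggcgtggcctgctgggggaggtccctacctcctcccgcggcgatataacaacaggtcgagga
Both keratin windows held 1 such E-box, and it began 111 bases before the start in Krt8 and 214 bases before it in Krt18. The letters did not occur in the Postn and Serpine2 windows shown. RefSeq lists 2 promoters for Postn, of which 1 is shown here. Of the 32851 RefSeq windows of this length, 5657 (17.2%) held the motif, so its presence in a window is common. A match is a description of the letters and not of binding. The RefSeq starts are not always those of the GENCODE gene spans given below. By those spans the Serpine2 window lies inside the gene, and the Krt8 and Krt18 windows run into their genes. The Krt8 E-box lies within that overlap.

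Postn (periostin, ENSMUSG00000027750, chr3:54361109-54391037) had 10682 counts in cell 29, 2030 in cell 31, 10032 in cell 41, 9622 in cell 68 and 9339 in cell 82. Just outside the threshold, DiD+ cell 37 had 956 counts and DiD+ cell 38 had 415. On the CPM scale, which divides each count by the cell's total on mouse genes, the 5 cells were at 2714, 892, 2016, 2609 and 1198, and the other DiD+ cells ranged over 0 to 199 CPM (median 0). No DiD- cell reached the threshold, and the highest, cell 34 and cell 92, had 753 and 244 counts. Depth did not set the 5 cells apart as a group: counts on mouse genes were 3935545, 2276795, 4975097, 3687340 and 7794224, which include both the lowest and the highest of all DiD+ cells, against 3209510 to 5961690 in the others. After each cell was thinned to 2200000 counts, a number that left out 0 cells, genes with at least 1 count numbered 6834, 8410, 8791, 5853 and 8381 against a median of 7999 in the others (unthinned 7000, 8422, 9116, 6024 and 8793, against a median of 8273). Cell 68 had the fewest genes of all 60 cells and the largest share of ERCC spike-in counts among the 5, 6.53%, whereas the other Postn-high cells were between 1.75% and 2.31%.

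Across all genes, the log2 ratio of Postn-high over other DiD+ cells was taken from summed counts with 1 CPM added, for the 9040 genes with at least 10 CPM on either side. By this measure 293 genes (3.24%) were 4-fold or more higher in Postn-high cells and 787 genes (8.71%) were 4-fold or more lower. Of the higher genes, 26 had at least 10 counts in all 5 cells and 49 in 4 of them, while 79 had them in only 1 cell, so much of the list came from single cells. In 107 of the 293 genes 1 cell held over 90% of the counts, and that cell was number 68 for 47 of them. Of the lower genes, 314 had 0 counts in every Postn-high cell, and a gene seen in some cells only is more easily at 0 in 5 cells than in 27. Only Postn and Clmp (0.0221% of the genes) had every Postn-high cell above every other DiD+ cell, and no gene (0%) had every Postn-high cell below every other. The count of lower genes was 1202 without cell 82. With each cell scaled by its ERCC spike-ins in place of its counts, the median log2 ratio of the genes tested went from -0.12 to -0.50, and 184 genes were 4-fold or more higher and 915 lower.

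Krt8 (ENSMUSG00000049382, chr15:101996698-102004482) was at 840.0, 251, 368, 329.5 and 497 CPM in cells 29, 31, 41, 68 and 82, the order used for all values that follow. The other DiD+ cells ranged over 358 to 4504 CPM (median 2018), so 23 of the 27 lay above the highest Postn-high cell and 4 lay below it. The summed level was 476 CPM (exact Poisson interval 467 to 485) against 2080 CPM (2072 to 2088), 4.37-fold lower. These 95% intervals cover counting error only, since the reads carry no molecular identifiers. The Krt8 transcript was thus present in every Postn-high cell, at a level that cells 36, 35 and 43 among the other DiD+ cells also had, with 358, 524 and 539 CPM.

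**Figure D1:**
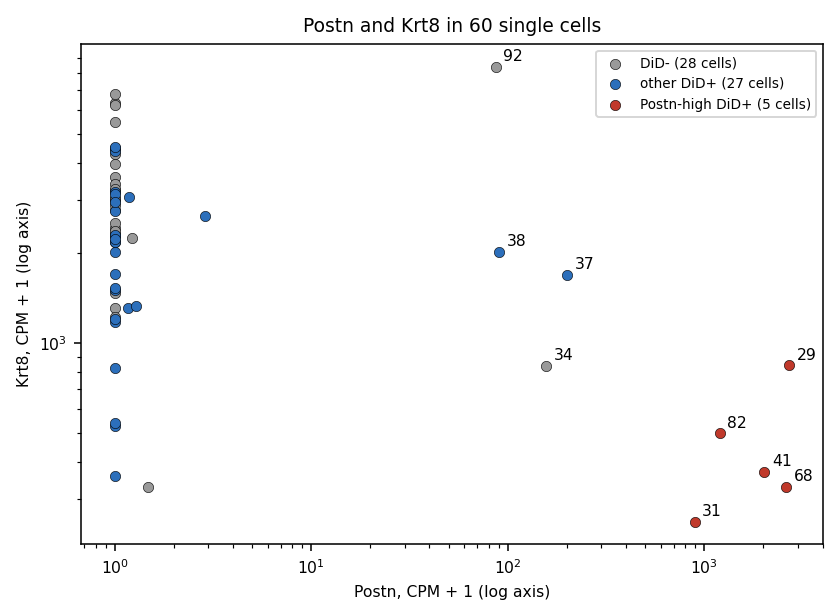
Postn (horizontal) against Krt8 (vertical) in each of the 60 cells, both as CPM plus 1 on log axes, with cells of over 100 Postn counts numbered. The 5 Postn-high cells lie at 251 to 840 CPM of Krt8, where only a few of the other cells lie.

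Krt18 (ENSMUSG00000023043, chr15:102028180-102032027), the partner of Krt8, was at 337, 14.9, 0.402, 0 and 50.4 CPM, and the other DiD+ cells ranged over 0 to 2598 CPM (median 576). The 2 summed levels were 77.4 and 848 CPM, 11-fold lower in Postn-high cells. Cell 29 alone carried 75.5% of the Krt18 counts of the 5 cells, and without it the log2 ratio went from -3.44 to -5.15. Cell 29 was also the Postn-high cell with the most Krt8. Krt13, a keratin of stratified epithelia, had 0 counts in all 5 cells and at least 10 counts in 17 of the 27 others, where it reached 252 CPM. Krt13 is not among the 12 listed keratins. It was picked for its small ratio in these same cells and its presence in the others, so its values partly restate that choice. Krt80, which is listed, was not lower in sum, with 26.4, 0, 0, 67.5 and 6.16 CPM against 0 to 94 CPM (median 0). Of the 12 listed keratins, 5 had at least 1 CPM on either side, and 4 of these were 2-fold or more lower and 0 higher, with a median log2 ratio of -2.12. Over the 12502 genes at this level, 11.1% were 2-fold or more higher and 28.4% lower, and the median was -0.23. The keratin median was the ratio of Krt8 itself, so it adds nothing to that gene. Of the 4 lower keratins, 2 had 0 counts in every Postn-high cell. Without 6 other DiD+ wells rich in macrophage or erythroid markers, 4 keratins were at this level and 3 were lower. Krt19, Krt7, Krt5 and Krt17 had 0 counts in all 32 DiD+ cells. Krt14 had 0 counts in the 5 cells and at least 10 counts in 1 of the 27 others.

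Few cell junction genes were measured at all. Of the 31 listed junction genes, 13 had at least 1 CPM on either side, and 9 of the 13 were 2-fold or more lower in Postn-high cells and 0 higher, with a median log2 ratio of -1.68 (-2.80 without cell 82). That is 69.2% lower beside 28.4% over all genes at this level. Of the lower genes, 7 had 0 counts in every Postn-high cell, which 5 cells reach more easily than 27. Without the 6 wells rich in macrophage or erythroid markers, 7 of 11 were lower. The summed level of the list was not lower, at 360, 325, 150, 399 and 163 CPM against 57 to 810.4 CPM (median 309), and 8 of the 27 others lay below the lowest Postn-high cell. Perp, a desmosome protein, had 0 counts in all 5 cells and 58.4 CPM in the others, at least 441-fold lower with the zero set at 3 counts over the group, although only 11 of the 27 others held 10 counts or more. Pkp2 and Pkp3, plakophilins of the desmosome, were at 0, 0, 0, 0.271 and 24.8 CPM and 0, 0, 0, 0 and 20.1 CPM, nearly all of it in cell 82. Jup, the plakoglobin of desmosomes and adherens junctions, was at 275, 251, 27.1, 395 and 53.9 CPM against 0 to 516 CPM (median 49.1), and F11r, a tight junction protein, at 81.8, 19.3, 117, 0 and 18.3 CPM against 0 to 157 CPM (median 40.9), so both overlapped fully.

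The mesenchymal genes did not move as a block. Of 22 listed genes, 18 were measured at 1 CPM or more, of which 8 (44.4%) were 2-fold or more higher, 3 (16.7%) lower and 7 between. All genes at this level had shares of 11.1% higher and 28.4% lower. The median log2 ratio was 0.49 for the list and -0.23 over all genes. Vim, the vimentin filament gene, was at 3649, 4074, 2256, 3226 and 3821 CPM against 989 to 8391 CPM (median 3755). Fn1, fibronectin, was at 219, 4922, 2667, 532 and 2886 CPM against 226 to 10292 CPM (median 2988). Both genes were thus as high in the other DiD+ cells as in the Postn-high cells. Cdh2, N-cadherin, had 0 counts in all 5 cells and at least 10 counts in 19 of the 27 others, with a summed level of 71.9 CPM there. Tpm2, a tropomyosin, likewise had 0 counts in all 5 cells against 36.4 CPM, whereas Tpm1 was at 1962, 1152, 1219, 3830 and 1750 CPM against 363 to 2587 CPM (median 1122).

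Among the higher genes of this list were surface proteins and matrix proteins of fibroblasts. Pdgfrb, the platelet-derived growth factor receptor beta, was at 331, 748, 378, 22.2 and 116 CPM against 0 to 156 CPM (median 2.35), a log2 ratio of 3.56, with 7 of the 27 others above the lowest Postn-high cell. Sparc, a collagen-binding matrix protein, was at 2009, 2272, 9331, 2494 and 1327 CPM against 321 to 2426 CPM (median 983). Cell 41 gave most of the Sparc difference, whose log2 ratio went from 1.64 to 0.72 without it. Fap, a protease of activated fibroblasts, was at 0, 73.8, 59.3, 0 and 0 CPM and had 0 counts in all 27 others. Of the transcription factors of the mesenchymal change, 8 were measured, of which 1 (12.5%) was 2-fold or more higher and 0 lower. The share higher was near that over all genes at 1 CPM or more, of which 11.1% were higher and 28.4% lower. The 1 higher factor was Tcf4, at 157, 78.2, 387, 374 and 109 CPM against 0 to 193 CPM (median 53.9). Zeb1 was at 70.6, 93.6, 15.7, 17.1 and 22.5 CPM against 0 to 148 CPM (median 36.2) and Twist1 at 45.7, 11.4, 23.1, 2.71 and 16.9 CPM against 0 to 42.1 CPM (median 11.3), and neither set the cells apart.

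Most collagen genes were higher in sum, with wide spread between cells. Of 21 listed collagens, 18 were measured, and 13 (72.2%) were 2-fold or more higher in Postn-high cells and 3 (16.7%) lower. Over all genes at 1 CPM or more the shares were 11.1% and 28.4%. The collagen median log2 ratio was 1.74 (1.25 without cell 41 and 2.16 without cell 82), beside -0.23 over all genes. The summed level of the list was 1155, 4759, 7025, 2186 and 1456 CPM, against 68.2 to 4876 CPM (median 1061) in the others. The 2 ranges overlapped, and cells 31 and 41 were the highest of the 5. Col3a1, a chain of fibrillar collagen III, was at 225, 759.8, 3753, 572 and 214 CPM against 0 to 435 CPM (median 0), 36.2-fold higher in sum. Cell 41 held 74.5% of its counts, and without that cell the log2 ratio went from 5.13 to 3.52. Col12a1, which decorates collagen fibrils, was at 80.04, 7.91, 162, 0 and 88.7 CPM against 0 to 70.1 CPM (median 0). The 3 chains of collagen VI, the beaded filament around cells, differed: Col6a1 was at 251, 726, 555, 161 and 398 CPM against 0 to 496 CPM (median 106), Col6a2 at 30.7, 603, 231, 226 and 49.4 CPM against 0 to 124 CPM (median 0), and Col6a3 at 0, 476, 272, 0 and 20.5 CPM against 0 counts in all 27 others.

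Not all collagens followed. Col18a1, a basement membrane collagen, was at 53.1, 885, 623, 68.6 and 283 CPM against 45.3 to 3800 CPM (median 578), a log2 ratio of -1.15. Col1a1, the main chain of collagen I and a defining gene of osteoblasts and fibroblasts, did follow, though at a low level. It was at 12.5, 84.8, 4.62, 0 and 0 CPM, with 0 counts in all 27 others, so among DiD+ cells only Postn-high cells held it. Of the 13 collagen processing genes measured, 4 (30.8%) were 2-fold or more higher and 1 (7.69%) lower, beside 11.1% and 28.4% over all genes. P4ha2, a prolyl hydroxylase of collagen, was at 177, 20.2, 137, 305 and 69 CPM against 0 to 86.5 CPM (median 0), and Serpinh1, the collagen chaperone, had 0 counts in all 5 cells and at least 10 counts in only 2 of the others.

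Matricellular genes, whose products sit in the matrix and signal to cells, were next. Of 17 measured, 9 (52.9%) were 2-fold or more higher and 0 lower, with a median log2 ratio of 1.16. Among all genes at 1 CPM or more, 11.1% were higher and 28.4% lower. Spp1, osteopontin, was at 27554, 31843, 31889, 5956 and 12907 CPM against 206 to 22360 CPM (median 1798), and only 2 of the 27 others lay above the lowest Postn-high cell. Mgp, matrix Gla protein, which inhibits calcification, was at 5150, 1454, 4045, 3284 and 1154 CPM against 1.43 to 3575 CPM (median 396). Ccn5, a growth-inhibitory member of the CCN family, was at 248, 2759, 533, 3773 and 0 CPM against 0 to 317 CPM (median 0), so cell 82 lacked it while cells 31 and 68 held the most. Tnc, tenascin C, was a gene of cell 31 alone, at 0.254, 720.3, 0.804, 0 and 0 CPM. The family members Ccn1 and Ccn2, which are known targets of YAP, had log2 ratios of -0.27 and -0.15 and overlapped fully. Small leucine-rich proteoglycans, which bind collagen fibrils, were 2-fold or more higher in 5 of 6 measured genes (83.3%) and lower in 0. Their summed levels were 293, 122, 56.1, 1805 and 17.7 CPM against 0 to 612 CPM (median 14.5). Cell 68 carried most of that sum through Ogn, osteoglycin, at 0, 22.4, 15.7, 1224 and 3.21 CPM. Without cell 68 the Ogn log2 ratio was -2.06, 3 genes of the list were 2-fold or more higher and 1 lower, and the list median went from 1.94 to 1.08.

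Of 19 listed matrix proteases and inhibitors, 14 were measured, and 8 (57.1%) were 2-fold or more higher and 1 (7.14%) lower. The shares over all genes at this level were 11.1% and 28.4%. The median log2 ratio of the 14 was 1.12. Serpine2 (protease nexin 1, ENSMUSG00000026249, chr1:79794197-79861180), an inhibitor of thrombin and urokinase, had the largest ratio of the genes present in most Postn-high cells, at 398, 841, 6956, 0 and 439.6 CPM against 0 to 179 CPM (median 0), 138-fold higher in sum. It had at least 10 counts in 4 of the 5 cells and in 3 of the 27 others, and cell 68 had none. Cell 41 held 83.4% of its counts. Without that cell the log2 ratio was 4.78. Serpinf1 (pigment epithelium-derived factor, ENSMUSG00000000753, chr11:75409769-75422701), an antiangiogenic serpin, was more even, at 2192, 1877, 2525, 1734 and 773 CPM against 0 to 1394 CPM (median 97.9), with 1 of the 27 others above the lowest Postn-high cell. Mmp14, a membrane collagenase, was at 361, 638, 1812, 1007 and 253 CPM against 9.66 to 697 CPM (median 247), and Plat, tissue plasminogen activator, at 538, 475, 481, 0 and 202 CPM against 0 to 514 CPM (median 58.3).

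**Figure D2:**
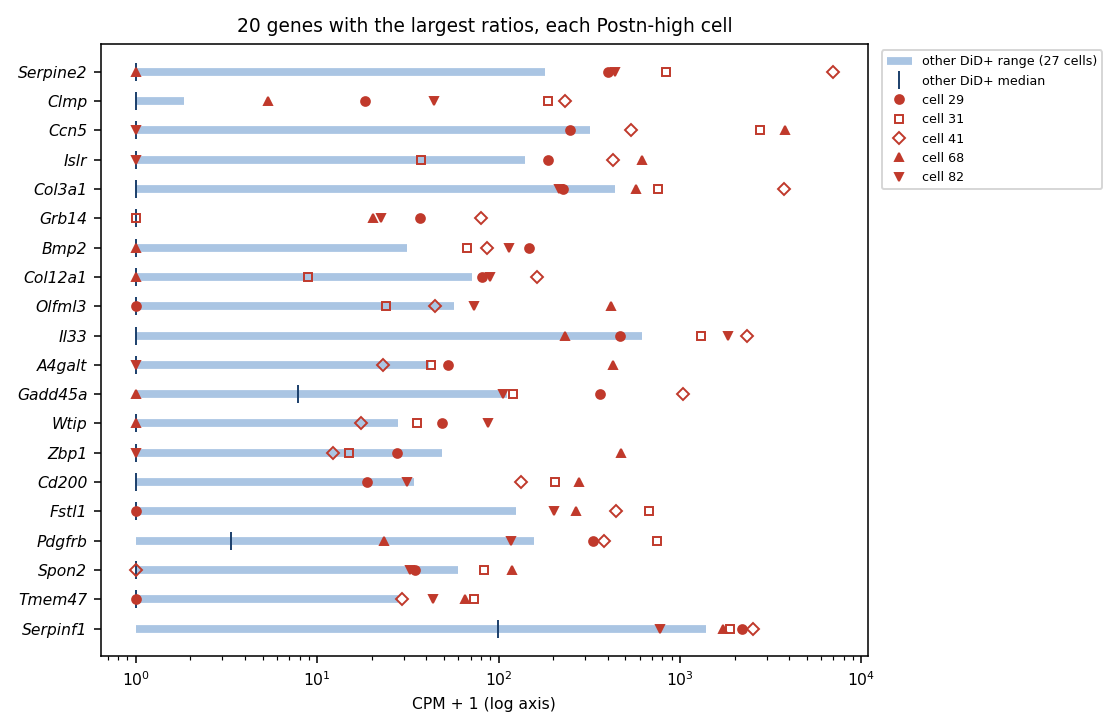
The 20 genes with the largest ratios among those with 10 or more counts in at least 4 of the 5 Postn-high cells, as CPM plus 1 on a log axis. Red symbols are the 5 cells, blue bars the range of the 27 other DiD+ cells and ticks their median. Clmp has every symbol beyond the bar, and for most genes 1 or more of the 5 cells lie within it.

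Further genes with large ratios had other roles. Clmp, an adhesion protein of cell junctions (ENSMUSG00000032024, chr9:40685962-40785319), was at 17.3, 186, 231, 4.34 and 43 CPM, and its highest level in any other DiD+ cell was 0.854 CPM. Grb14, an adaptor that inhibits insulin receptor signaling, was at 35.8, 0, 79, 19.3 and 21.6 CPM, and had 0 counts in all 27 others. Il33, an alarmin of the interleukin 1 family, was at 468, 1311, 2344, 232 and 1835 CPM against 0 to 616 CPM (median 0). Bmp2, the bone morphogenetic protein, was at 147, 65.9, 85.4, 0 and 112 CPM against 0 to 30.1 CPM (median 0). Gadd45a, a gene of growth arrest and DNA damage, was at 362, 119, 1032, 0 and 104 CPM against 0 to 111 CPM (median 6.85). In Bmp2 and Gadd45a as in Serpine2, cell 68 stood at 0 while the other 4 cells were high. Islr, Olfml3, A4galt, Wtip, Zbp1, Cd200, Fstl1, Spon2 and Tmem47 completed the 20, with log2 ratios from 3.26 to 5.61. Single cells carried part of several of these ratios. Without cell 68 the log2 ratio of Zbp1 went from 3.77 to 0.82, that of A4galt from 4.02 to 2.03, that of Olfml3 from 4.36 to 3.13 and that of Ccn5 from 5.73 to 4.72. Without cell 41 it went from 3.90 to 2.66 for Gadd45a, from 6.38 to 5.51 for Clmp and from 5.13 to 4.49 for Grb14. Without cell 82 it went from 3.87 to 2.95 for Wtip.

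On the lower side, 17 of the 20 genes with the smallest ratios had 0 counts in all 5 Postn-high cells. They included Itgb7, an integrin beta chain, at least 669.7-fold lower with the zero set at 3 counts over the group, Rab3b, a GTPase of vesicle release, at least 422-fold lower, and Gne, the first enzyme of sialic acid synthesis, at least 407-fold lower. Rab3b had at least 10 counts in 23 of the 27 others, Gne in 20 and Itgb7 in 15. The 20 genes were ranked by their ratio in these same cells and had to be present in a set share of the others. Zeros in the 5 cells and presence in the others therefore partly restate that choice. Transporters among the 20 were Slc6a15 for amino acids, Slc20a2 for phosphate and Spns2 for sphingosine 1-phosphate. Amigo2, an adhesion protein, was at 0.254, 0, 10.1, 0 and 0 CPM against 0 to 397 CPM (median 115). Each of these 20 genes was undetected in some of the other DiD+ cells as well, so none separated the sides completely.

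The transgenes marked the wells as holding tumor RNA. Luc2 was at 90.5, 96.6, 120.0, 86 and 102 CPM against 0 to 174 CPM (median 72.6), and eGFP at 28.5, 43, 31.2, 31.7 and 35.9 CPM against 0 to 76.4 CPM (median 24.5). mApple was at 0, 21.5, 80.8, 45.8 and 27.2 CPM against 0 to 179 CPM (median 57.3), with 0 counts in cell 29. Every Postn-high cell thus had Luc2 and eGFP, and 4 of 5 had mApple. Pymt, the polyoma middle T oncogene, had 0 counts in all 5 and at least 10 counts in 7 of the 27 others, whose median was 0.

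Markers of other cell types were examined because periostin, collagens and Pdgfrb are also genes of bone stroma. Of 13 macrophage markers, 0 to 2 had 10 or more counts in a Postn-high cell, against 0 to 13 in the others, and Csf1r, Cd68 and Adgre1 had 0 counts in all 5. Of 7 erythroid markers none had 10 counts in a Postn-high cell, against 0 to 7 in the others. Of 12 osteoblast markers, 4, 4, 3, 0 and 2 had 10 or more counts, against 0 to 3 in the others, and their summed level was 223, 234, 44.2, 0 and 38 CPM against 0 to 818 CPM (median 10.8). Of 6 osteoblast markers with at least 1 CPM on either side, 2 (33.3%) were 2-fold or more higher and 0 lower. Over all genes at this level the shares were 11.1% and 28.4%. The median log2 ratio of the 6 was 0.65. Without cell 29 it was 0.70, with 1 of 5 higher and 1 lower. The defining osteoblast genes Bglap and Ibsp had 0 counts in all 5 cells and were under 1 CPM in the others. Alpl, alkaline phosphatase, was in cell 29 only, at 136 CPM. Of 14 marrow stroma markers, 7, 7, 5, 6 and 4 had 10 or more counts, against 3 to 8 in the others. Their summed level was 510.0, 1501, 1266, 11344 and 1011 CPM against 54.1 to 4555 CPM (median 1169), so cell 68 lay above every other DiD+ cell, and most of its sum was Ly6a. Lepr, the leptin receptor of marrow stroma, had 0 counts in all 5, and Cxcl12 was at 65.6, 68.1, 0, 11.4 and 337 CPM against 0 to 365 CPM (median 31.1). Of 9 pericyte markers at most 1, and of 10 endothelial markers at most 2, had 10 counts in a Postn-high cell. Of 5 platelet markers, 4, 1, 0, 0 and 1 had 10 or more counts, against 0 to 2 in the others. Their summed level was 29.5, 16.3, 0, 0.271 and 3.85 CPM against 0 to 299 CPM (median 0), so cell 29 held more of these markers than any other DiD+ cell, at low levels. Of 7 chondrocyte markers only Sox9, a transcription factor also of mammary epithelium, had 10 counts in a Postn-high cell, and it was at 1192 CPM in cell 29 against at most 1187 CPM in the others. The part of stromal or platelet RNA in these results was not tested. In 6 of the 27 other DiD+ wells at least 7 macrophage or at least 4 erythroid markers had 10 counts or more. Without those wells the medians were -2.65 for keratins, -1.68 for junction genes, 0.62 for mesenchymal genes and 1.997 for collagens.

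**Figure D3:**
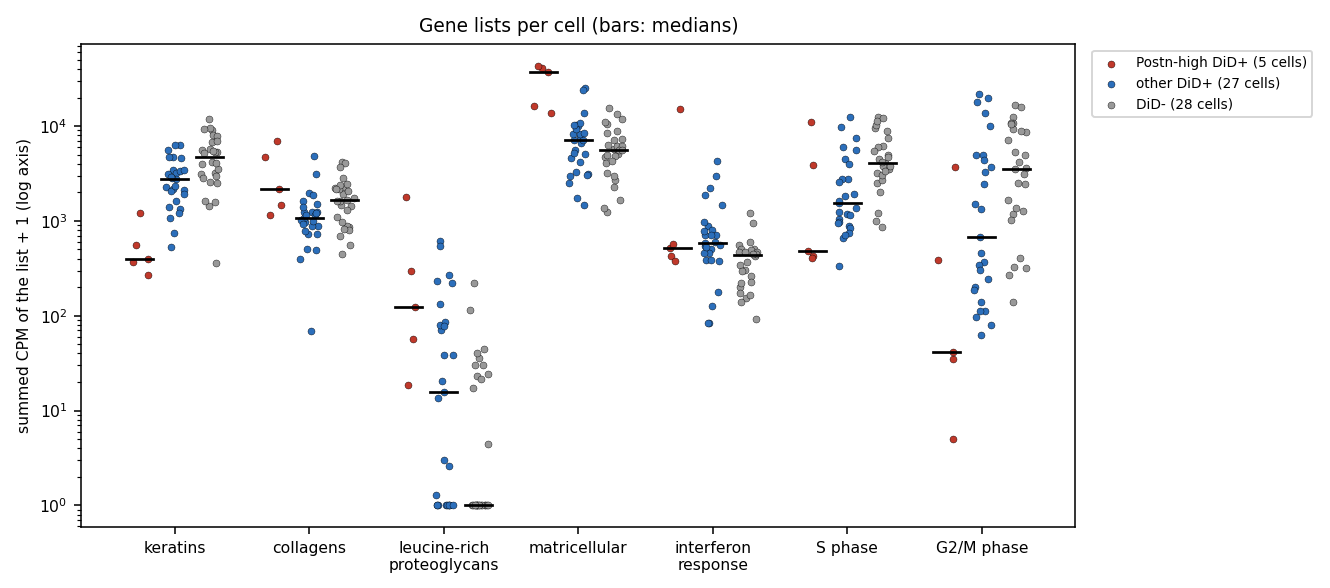
Summed CPM of 7 gene lists plus 1 on a log axis, 1 point per cell, with medians as bars. Postn-high cells (red) lie low for keratins and high for matricellular genes, and are spread for the interferon and cell cycle lists, where single cells stand apart.

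The 5 cells were not alike in cell cycle genes. Summed S phase genes were at 477, 3855, 424, 401 and 10994 CPM against 332 to 12562 CPM (median 1539), and summed G2/M genes at 34.3, 383, 40.6, 4.07 and 3706 CPM against 62 to 21578 CPM (median 679). Cell 82 had 30 of 30 S phase genes and 26 of 30 G2/M genes at 10 counts or more, and cell 31 had 22 and 8, whereas cells 29, 41 and 68 had 7, 10 and 5 and then 3, 2 and 1. Mki67, the proliferation marker, was at 0, 0, 0, 0 and 95.8 CPM, and Cdk1, the mitotic kinase, at 0, 170.0, 0, 0 and 546 CPM. The S phase median log2 ratio was 0.51 with all 5 cells and -1.83 without cell 82, so its direction changed without that cell. It also turned with all 5 cells kept, to -0.18 under ERCC scaling, and was 0.093 for mean CPM. The G2/M median was -1.64 and -6.01, in the same direction. Cdkn1a, the p21 inhibitor of cyclin-dependent kinases, was at 2333, 618, 292, 537 and 1572 CPM against 43.1 to 2501 CPM (median 342), and was high in cell 82, which held most cell cycle genes, as well as in cell 29.

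Interferon-response genes belonged to cell 68. Their summed level was 423, 378, 512, 15111 and 569.5 CPM against 82.3 to 4237 CPM (median 589.7), so cell 68 lay above every other DiD+ cell and the other 4 lay below the median of the others. Gbp2, a guanylate-binding protein, was at 0, 32.5, 79, 3494 and 89.7 CPM and Cxcl10, a chemokine, at 0, 0, 5.03, 1935 and 47 CPM. Of the 24 genes, 13 (54.2%) were 2-fold or more higher and 5 (20.8%) lower, beside 11.1% and 28.4% over all genes at 1 CPM or more. Without the 6 other DiD+ wells rich in macrophage or erythroid markers, 14 of 21 were higher and 1 lower. Without cell 68, 0 of 23 were higher and 11 lower, and the median log2 ratio went from 1.20 to -0.76. Ly6a, the surface protein Sca-1, was at 185, 1053, 374, 10681 and 631 CPM against 7.76 to 3386 CPM (median 764) and was also highest in that cell.

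Ligands, receptors and targets of the TGF-beta pathway, known to induce Postn and collagens, were mixed. Of 17 measured genes 5 (29.4%) were 2-fold or more higher and 2 (11.8%) lower, beside 11.1% and 28.4% over all genes at 1 CPM or more. Their median log2 ratio was 0.21, beside -0.23 over all genes. It was 0.02 without cell 29, with 3 higher and 2 lower, and 0.53 without cell 82, with 6 higher and 3 lower. Tgfb3, a ligand, was at 100.4, 106, 106, 164 and 14.8 CPM against 0 to 141 CPM (median 11). Integrins, the receptors that bind periostin and collagen, had 0 of 11 measured genes 2-fold or more higher and 4 lower, or 36.4% lower beside 28.4% over all genes at this level. Itgav was at 0, 54, 69.7, 3.25 and 53.1 CPM against 0 to 172 CPM (median 38.7) and Itgb1 at 662, 809, 430.3, 908 and 1013 CPM against 191 to 1355 CPM (median 720.4). Itgb4, the beta chain of epithelial hemidesmosomes, was at 0, 12.7, 10.3, 0 and 115 CPM against 0 to 242 CPM (median 105). Of 11 genes that the study names, which it chose on these same samples, 7 (63.6%) were 2-fold or more higher and 0 lower. Over all genes 11.1% were higher. Without cell 29, and also without cell 68, 5 were higher and 1 lower. The median log2 ratio was 1.35 with all 5 cells, and 0.92 and 0.87 without cells 29 and 68. Gas6, a ligand of AXL, was at 41.4, 69.4, 76.4, 9.76 and 32.1 CPM against 0 to 370.2 CPM (median 0), and Aldh1a1, a retinaldehyde dehydrogenase, at 217, 0, 0, 0 and 101 CPM against 0 to 297 CPM (median 0). Housekeeping genes had a median log2 ratio of -0.17, with 0 of 8 past 2-fold.

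The DiD- cells, which the rule did not use, gave a separate view of whether low Krt8 went with matrix genes. Over the 28 DiD- cells Krt8 followed Krt18, as Pearson's r was 0.81 and Spearman's rho 0.83 on the log2 scale, and r was 0.72 without the 2 cells farthest from the median of Krt8. With the summed mesenchymal genes r was 0.05 and rho 0.005, and with the summed collagens r was 0.007 and rho -0.06, both near 0. Other measures ran the other way to Krt8. With Mgp r was -0.32 and rho -0.41 (r -0.24 without the 2 farthest cells), with Serpinf1 r was -0.31 and rho -0.43 (r -0.18), and with the number of the 20 genes of largest ratio present in a cell r was -0.35 and rho -0.51 (r -0.42). With Spp1 r was -0.04 and rho 0.03. In the 27 other DiD+ cells the corresponding rho was -0.13 for Mgp, 0.20 for Serpinf1, -0.06 for the number of the 20 genes and 0.38 for the summed collagens. Each point is 1 cell with its own library, and the cells share the pooled bones. DiD- cell 34, the one with 753 Postn counts, had 839 CPM of Krt8 and 4220 CPM of summed collagens, both near values of Postn-high cells, and DiD- cell 92, with 244 Postn counts, had 8390 CPM of Krt8, the highest of all 60 cells. Of the 20 genes with the largest ratios, cell 34 held 6 and cell 92 held 2 at 10 counts or more, within the range of 1 to 11 over all DiD- cells. DiD- cell 65 had the lowest Krt8 of the DiD- cells, 329 CPM, and held 6 of the 20.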

How the data were processed

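Single PyMT-Bo1 cells sorted as DiD+ (32) or DiD- (28) were the samples. Per the paper's methods, adapters were removed and reads mapped by STAR on GRCm38/mm10 extended with ERCC and transgene sequences, then quantified by RSEM (versions not given in the sources used here). What the authors deposited are RSEM estimated counts that were not normalized, covering 47729 mouse genes (47224 matched to a symbol), 92 spike-ins and 4 transgenes. A second deposited table holds signal normalized by BASiCS and served here only as an alternative scaling. No column was left unused, and no 2 cells held identical values.

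Counts were rounded to whole numbers. CPM was taken over mouse genes, which numbered 22669001 counts over the 5 Postn-high cells and 123406193 over the 27 other DiD+ cells. Where a group had no count, its upper limit was set at 3 counts, which is 0.132 CPM for the Postn-high and 0.0243 CPM for the other cells. The log2 ratio was taken from summed counts with a pseudocount of 1 CPM, for genes with at least 10 CPM on either side, or 1 CPM for gene lists. Presence of a gene in a cell means 10 counts or more. Since no mouse is named for a cell, no p-value or standard error was computed. Wells that may hold more than 1 cell were kept.

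Genes named by size were the 20 largest and 20 smallest log2 ratios, given 10 CPM or more on the higher side and, for higher genes, 10 counts in at least 75% of the Postn-high cells, or, for lower genes, 10 counts in at least 50% of the other DiD+ cells. Postn was left out because it chose the cells. Genes of the lists could be given by value. Cells named singly, and genes outside these rules, were chosen after their values were seen. The members, lists and tests were chosen with earlier results of these data known. Alternatives were other scalings (mean of CPM, BASiCS, ERCC, edgeR TMM and DESeq2 factors), pseudocounts, minimum levels, Postn thresholds, wells left out and each cell left out. Gene positions are from GENCODE for GRCm38, and promoters from RefSeq. Of each set of 20 genes, 13 higher and 14 lower genes had a RefSeq promoter, and 1 and 2 of them held the E-box. The steps were tested on simulated counts. Scaling factors came from edgeR 4.0.16 and DESeq2 1.42.0 in R 4.3.3, and all else from Python 3.11.15 (scipy 1.17.1, pandas 2.3.3, numpy 2.4.6; plots by matplotlib 3.10.9).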

Additional observations from a re-analysis of the deposited data

Results flagged for a closer look

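Among 33 values compared over the 5 Postn-high cells, 9 had 1 cell far from the other 4, with a gap to the nearest cell beyond Dixon's 95% limit. In normally spread values about 5% of such groups would be flagged. Cell 41 stood apart in Serpine2, at 6956 CPM, and in Col3a1, at 3753 CPM. Cell 68 stood apart in Olfml3, at 416 CPM, in A4galt, at 427 CPM, in Zbp1, at 472 CPM, in the summed small leucine-rich proteoglycans, at 1805 CPM, and in the summed interferon-response genes, at 15111 CPM. Cell 29 stood apart in Krt18, at 337 CPM. Cell 82 stood apart in the summed G2/M genes, at 3706 CPM. In each case the cell named was the highest of the 5. No explanation of these differences was tested.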

How the results depend on the processing

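The gene counts, the keratin, junction, mesenchymal and collagen medians, the S phase and G2/M medians, and the ratios of the genes named by size and the transgenes were recomputed under 8 other scalings, pseudocounts or minimum levels, 4 other Postn thresholds, without 6 wells rich in macrophage or erythroid markers, and without each DiD+ cell in turn. Genes 4-fold or more higher numbered 184 under ERCC scaling and 88 with a pseudocount of 10 CPM, and 277 to 393 with 1 cell left out. Genes 4-fold or more lower numbered 153 with a pseudocount of 10 CPM and 1450 with no minimum level, and 771 to 1202 with 1 cell left out. Genes with every Postn-high cell above every other numbered 1 at a Postn threshold of 500 counts, which adds cell 37, and 2 to 6 with 1 cell left out. Genes with every Postn-high cell below every other numbered 1 at a threshold of 5000 counts, which leaves out cell 31, and 0 to 1 with 1 cell left out. The keratin median was -2.77 under ERCC scaling, -3.45 and -0.77 with pseudocounts of 0.1 and 10 CPM, -1.40 at a threshold of 500 counts, -2.65 without the 6 wells and -2.57 to -2.04 with 1 cell left out. The junction gene median was -2.24 for mean CPM, -2.21 for BASiCS values, -4.29 and -0.64 with those pseudocounts, -1.20 with no minimum level and -2.80 to -1.52 with 1 cell left out. The mesenchymal median was -0.087 under ERCC scaling and 0.29 to 0.68 with 1 cell left out. The collagen median was 1.25 to 2.16 with 1 cell left out. The S phase and G2/M medians, recomputed after the data were seen, were -1.83 to 0.85 and -6.01 to -1.30 with 1 cell left out, and -0.18 and -2.80 under ERCC scaling. The other lists were recomputed only without the 6 wells and without each Postn-high cell. Acsbg1 and Prcp turned to 0.13 and 0.27 at a threshold of 500 counts. Where a value moved, the cause was not tested. The planned keratin, junction and collagen directions were the same under all of these settings. With genes at 0 on 1 side set at their bound of 3 counts, the keratin median was -3.25 and the junction median -3.81. No paired analysis was possible because the labels give no replicate number.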
